A study of Mus musculus with 21 samples.

Results

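Interferon-stimulated genes are the genes that a cell switches on after an interferon has bound its receptor. A fixed list of 39 of them was followed through a count table of 25361 genes from the mouse cecum. The list took known targets of the pathway by symbol: ISG15 and its protease, the IFIT and OAS families, nucleic acid sensors, antiviral effectors, transcription factors, GTPases, chemokines, antigen processing genes and 5 others. All 39 symbols were found, and 37 passed the filter on low counts and were tested. The other two were Igtp, an immunity-related GTPase with 1 count over all libraries, and the chemokine gene Cxcl10, which is listed at 0 in every library.

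RNA came from the cecum of C57BL/6 mice, an inbred laboratory strain. They started at 3 weeks of age on the Total Western Diet, a rodent diet modelled on the nutrients of a human Western diet, and ate it for 6 weeks. For 3 more weeks every group stayed on this base diet, with 0%, 0.5%, 1.0% or 2.5% broccoli powder mixed in. There were 6 libraries at 0% and 5 at each other dose, and the labels give each library its own animal number.

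Interferons are cytokines that warn cells of infection. Type I and type III interferons act through a complex with STAT2 and IRF9, which binds a DNA element called the interferon-stimulated response element. Interferon gamma acts mainly through another element, the gamma-activated site, and many genes answer to more than one kind of interferon. In the gut, epithelial cells are a main site of the type III response, and signals from gut microbes are known to keep a low tone of these genes in the absence of infection.

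Library totals ran from 28514263 to 58594569 counts, and mitochondrially encoded genes took 22.1% to 31.8% of a library. Markers of the large intestine, to which the cecum belongs, were present. All 11 markers of its epithelium passed the filter, and the carbonic anhydrase Car1 lay between 2868 and 5790 CPM (read counts scaled to a common library size). Small intestine markers were uneven, with a mean log2 CPM of 2.90 to 5.34 in 6 libraries, highest in 0% replicate 5 (4.69) and 1.0% replicate 1 (5.34), and of at most 1.63 in the other 15. Some genes that nearly every cell makes, such as the MHC class I light chain B2m, are listed at 0 in all libraries of this table, so an entry of 0 for Cxcl10 does not show that the gene was silent.

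The interferon-stimulated response element can be read in the DNA before several members, and it is shown here because it is the feature the list is known for. Promoter windows from 250 bases before to 50 bases after the start of a gene were taken from RefSeq on GRCm38.p6, and 30 of 39 members had an entry. The core GAAA, any 2 bases, GAAA, searched on both strands, was in the window of 17 of these 30 members (56.7%) and of 3.99% of all 27025 genes with a window. The core of the gamma-activated site, TTCNNNGAA, which reads the same on both strands, was in 8 of 30 members (26.7%) and in 9.55% of all genes. The stretches below are 160 bases upstream of 6 members, on the strand of the gene, with capitals marking GAAA, any 2 bases, GAAA, or its reverse complement TTTC, any 2 bases, TTTC.
Isg15, chr4:156200819-156200978 (minus strand): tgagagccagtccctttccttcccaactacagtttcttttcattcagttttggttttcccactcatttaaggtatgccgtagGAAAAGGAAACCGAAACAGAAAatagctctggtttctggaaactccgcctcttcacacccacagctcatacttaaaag
Ifit1, chr19:34640711-34640870 (plus strand): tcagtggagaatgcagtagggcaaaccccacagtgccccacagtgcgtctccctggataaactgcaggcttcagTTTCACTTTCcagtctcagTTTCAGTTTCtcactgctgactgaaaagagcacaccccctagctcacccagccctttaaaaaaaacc
Ifit3, chr19:34583369-34583528 (plus strand): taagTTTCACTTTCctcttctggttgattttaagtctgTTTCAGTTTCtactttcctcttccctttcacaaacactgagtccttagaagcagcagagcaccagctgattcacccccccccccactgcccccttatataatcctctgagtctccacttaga
Oas1a, chr5:120907526-120907685 (minus strand): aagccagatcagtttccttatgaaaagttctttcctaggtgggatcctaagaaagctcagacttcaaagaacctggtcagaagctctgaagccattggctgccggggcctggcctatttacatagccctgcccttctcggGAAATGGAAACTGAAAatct
Gbp3, chr3:142559866-142560025 (plus strand): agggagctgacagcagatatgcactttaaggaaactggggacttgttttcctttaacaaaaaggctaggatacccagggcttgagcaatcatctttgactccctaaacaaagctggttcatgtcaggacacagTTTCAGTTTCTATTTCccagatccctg
Gbp7, chr3:142530176-142530335 (plus strand): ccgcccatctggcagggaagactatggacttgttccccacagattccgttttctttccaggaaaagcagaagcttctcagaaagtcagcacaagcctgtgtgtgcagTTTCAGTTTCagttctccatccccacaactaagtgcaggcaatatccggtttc

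Isg15 carried 3 overlapping matches, Ifit1, Ifit3, Oas1a and Gbp3 carried 2 each, and Gbp7 carried 1. These 6 were picked to set genes with a wide spread between mice (Isg15, Ifit1 and Ifit3) beside genes with a narrower one among the members (Oas1a, Gbp3 and Gbp7). A match is a run of letters and not a measured binding site.

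Per kilobase of exons, the members covered a wide range of levels in this tissue. Irf1, a transcription factor that answers to interferon gamma, was highest on average at 20.8 CPM per kilobase, followed by the OAS-like gene Oasl1 at 17.8, the type I regulator Irf7 at 13.1, the oligoadenylate synthetase Oas1a at 11.6 and Ifit1 at 10.7. Ifi44 was the lowest of the 37 tested, at 0.29 CPM per kilobase. Isg15, a short gene that encodes a ubiquitin-like protein, averaged 6.01 CPM per kilobase. No interferon gene passed the filter. Of 20 listed, 18 are listed at 0 throughout, while Ifng had 26 counts and Ifnz 16 counts over all 21 libraries.

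The mice of each diet spread over high and low levels of these genes. The level of a library is given here as the median, over the 37 members, of its log2 CPM minus the mean of that gene over all libraries. At 0%, this level was 0.23, -0.19, -0.43, -0.24, -0.10 and 0.38 in replicates 1 to 6. Replicates 6 and 1 lay apart at the top, with a gap of 0.33 to the next library. At 0.5%, the level was 0.10, 0.34, -0.12, -0.19 and -0.01 in replicates 1 to 5, with replicate 2 at the top and the others closer together. In the 1.0% diet it was -0.16, 0.34, -0.19, -0.11 and -0.17, so that 4 libraries lay close together and replicate 2 stood 0.46 above the next. In the 2.5% diet it was 0.13, 0.30, -0.29, 0.30 and -0.21, which put replicates 1, 2 and 4 above a gap of 0.34 and replicates 3 and 5 below it.

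**Figure D1:**
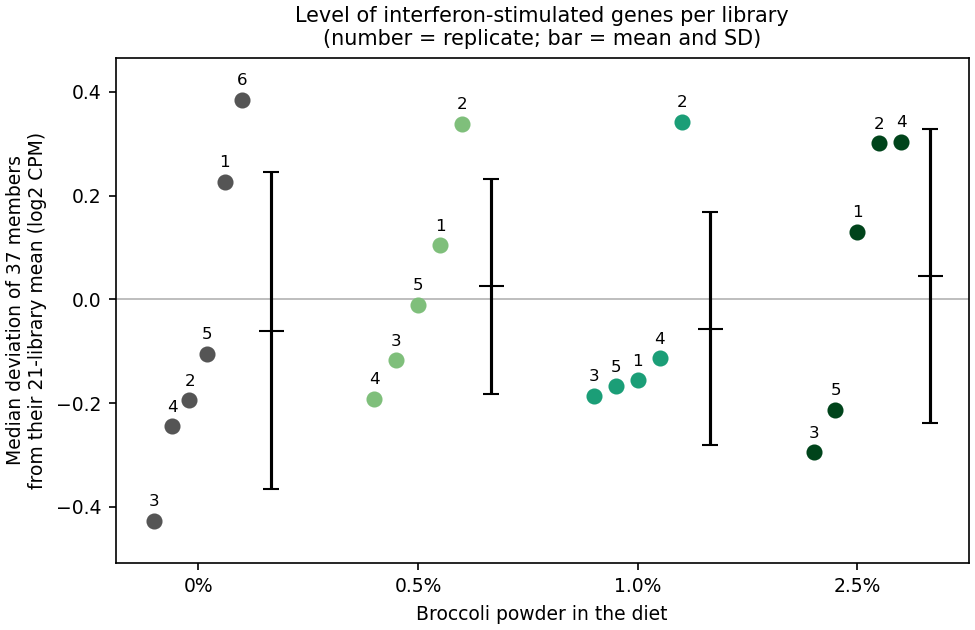
Level of the interferon-stimulated genes in each of the 21 libraries (median over 37 members of log2 CPM minus each gene's mean over libraries), by percent of broccoli powder; numbers are replicates, and bars are mean and SD of a diet. The diets overlap, with the highest library of each between 0.30 and 0.38 and the lowest between -0.43 and -0.19.

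The range within a diet was 0.81 at 0%, 0.53 at 0.5%, 0.53 at 1.0% and 0.60 at 2.5%, against diet means of -0.06 ± 0.31 (SD, n = 6), 0.02 ± 0.21 (n = 5), -0.06 ± 0.22 (n = 5) and 0.05 ± 0.28 (n = 5). Most members put the same library at the top of its diet. Of 37 members, 27 were highest in 0% replicate 6, 26 in 0.5% replicate 2 and 25 in 1.0% replicate 2, whereas at 2.5% replicate 4 was highest for 19 and replicates 1 and 2 for 9 each. At the bottom, 18 members were lowest in 0% replicate 3, 22 in 0.5% replicate 4, 14 in 1.0% replicate 3 and 18 in 2.5% replicate 3. The range within 1.0% rests on 1 library, since it was 0.0315 when recomputed without replicate 2, and that within 0.5% was 0.294 without its replicate 2.

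To see which genes carried this order, each gene was compared with the level of the other members over the 45 pairs of libraries that share a diet. A gene that follows the other members puts the same library of a pair higher, and a gene with no relation to them would do so in about as many pairs as not. The median member did so in 35 pairs, against 22 for the median of all 15652 genes tested, of which 90% had 28 or fewer. Of the 37 members, 35 lay above the median of all genes and 30 above its 90th percentile. The pairs share libraries, and the members were known to be targets of 1 pathway, so these counts are a description with no test. In bulk tissue such as this, fewer cells of a type and less RNA per cell cannot be told apart.

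**Figure D2:**
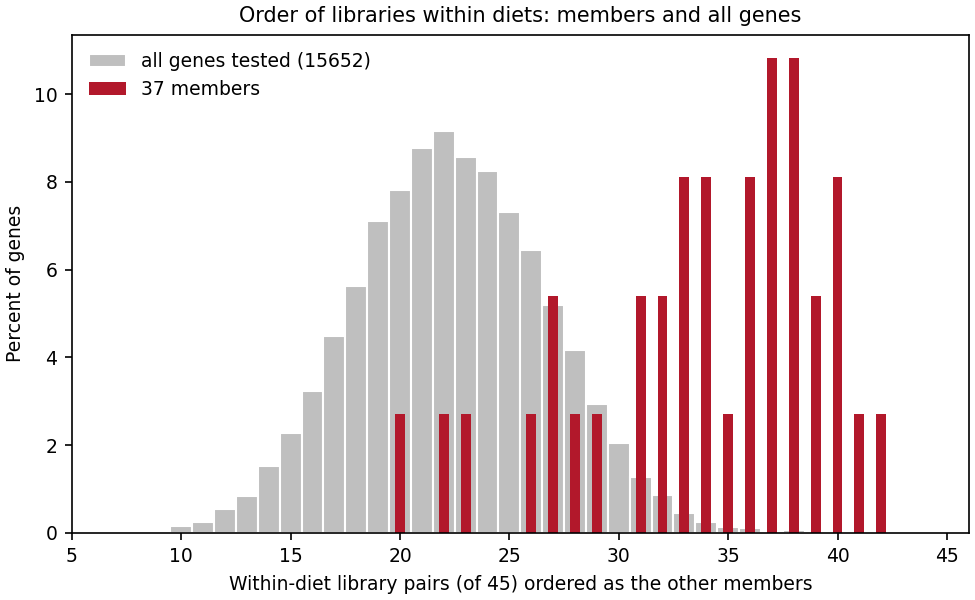
Percent of genes (y axis) by the number of within-diet library pairs, of 45, that a gene orders as the other members do (x axis), for all 15652 genes tested (grey) and the 37 members (red). Members centre on 35 pairs and all genes on 22, and a tail of members from Gbp7 at 20 to Irf1 at 29 lies within the grey distribution.

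The members also varied more between mice of 1 diet than most genes did. Their within-diet SD of log2 CPM had a median of 0.39, against 0.21 over all genes, and 33 of 37 lay above that median. Of the 37, 10 lay above the 90th percentile of all genes, 0.57. The spread was widest for Isg15 (SD 1.01), Oas2 (0.93), Cxcl9 (0.90), Ifit1 (0.89) and Oasl2 (0.83), and narrowest for Ifi35 (0.12) and Ddx58 (0.14).

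Isg15, whose product is joined to other proteins as a tag, had the widest spread of the list and followed the others in 38 pairs. At 0% its level was 6.87, 1.87, 2.61, 2.06, 2.67 and 7.60 CPM in replicates 1 to 6. At 0.5% it was 4.77, 7.18, 2.01, 1.85 and 4.25 CPM, and at 1.0% it was 2.04, 8.50, 1.73, 2.01 and 2.91 CPM. The 2.5% libraries had 3.25, 7.99, 2.61, 18.9 and 1.76 CPM. Every diet thus held libraries near 1.8 CPM and at least 1 above 7, the diets overlapped, and the highest library of a diet had 4.06, 3.87, 4.90 and 10.7 times the level of its lowest from 0% to 2.5%. Usp18, the protease that removes ISG15 and damps type I signalling, followed it in some diets. Its level ran from 11.9 to 19.9 CPM, its SD was 0.22, and it was ordered as the other members in 26 pairs. Of the 6 libraries at 0%, replicate 6 had the highest member level and the lowest Usp18, at 13.6 CPM. At 0.5% its levels of 16.6, 19.9, 14.6, 13.4 and 15 CPM put the 5 libraries in the order that Isg15 gave them, and at 1.0% both genes were highest in replicate 2, Usp18 at 19.5 CPM.

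The IFIT proteins, which bind foreign RNA, were the most uniform family in following the other members. Ifit1 was ordered as they were in 41 of 45 pairs, Ifit2 in 40 and Ifit3 in 37. Ifit1 stood at 43.4, 13.4, 10.2, 16.7, 22.1 and 64.6 CPM in the 6 libraries at 0%, and at 32.2, 44.7, 13.3, 12.7 and 25 CPM at 0.5%. It stood at 18.1, 47.4, 15.7, 17.6 and 18 CPM at 1.0% and at 24.5, 64.8, 12.1, 56.6 and 23.8 CPM at 2.5%. Replicates 1 and 6 at 0%, replicate 2 at 0.5% and 1.0%, and replicates 2 and 4 at 2.5% were highest, all above 43 CPM, and the values of the diets overlapped. Ifit3 ran from 6.67 CPM in 0% replicate 4 to 29.6 CPM in 0% replicate 6, and Ifit2 from 10.7 CPM in 1.0% replicate 1 to 27.9 CPM in 0% replicate 6. The 3 genes lie within 1 cluster on chromosome 19 (GRCm38), Ifit2 from 34550694 to 34576419, Ifit3 from 34583531 to 34588731 and Ifit1 from 34640871 to 34650009, all on the plus strand, and close relatives there can share reads.

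**Figure D3:**
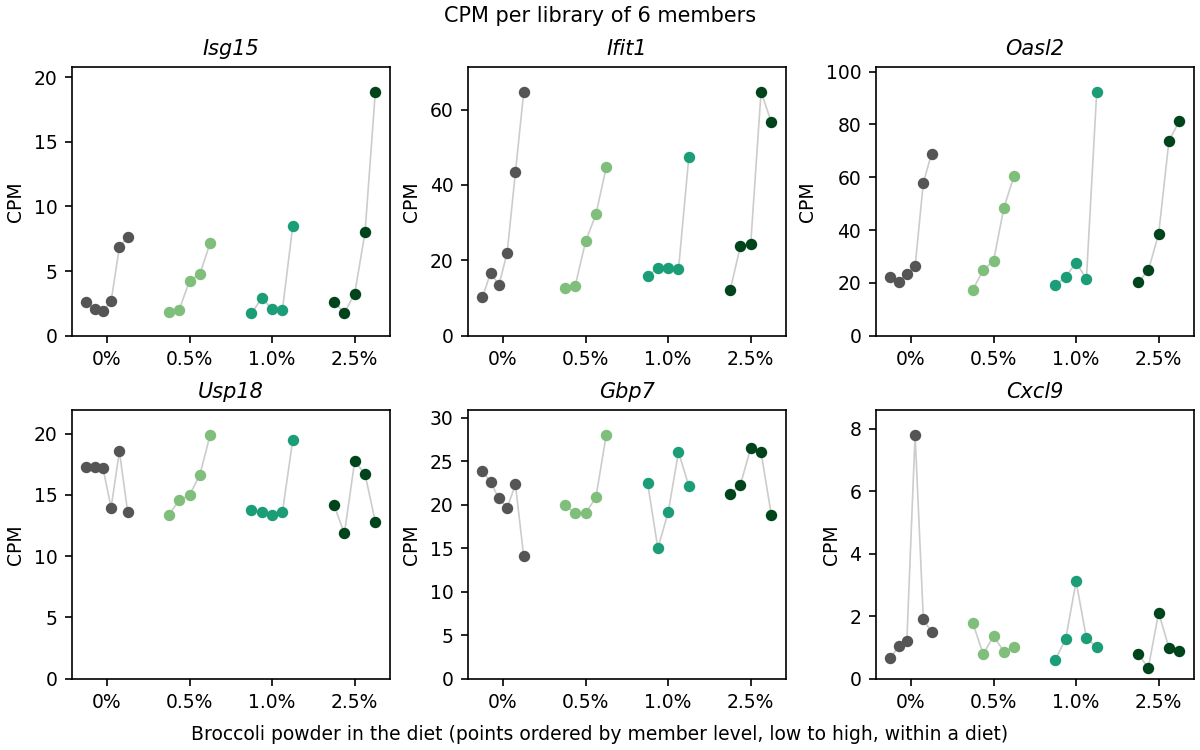
CPM of Isg15, Ifit1, Oasl2, Usp18, Gbp7 and Cxcl9 in each library, grouped by percent of broccoli powder on the x axis and ordered within a diet from the lowest to the highest member level. Isg15, Ifit1 and Oasl2 are highest toward the right end of each diet, while Gbp7 (14.1 to 28.1 CPM) does not and Cxcl9 peaks at 7.81 CPM in 0% replicate 5.

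The OAS family makes the short adenylate chains that switch on RNase L, and its members split into wide and narrow genes. Oasl2, an OAS-like gene on chromosome 5 from 114896936 to 114912234 (plus strand), followed the other members in 42 pairs, the most of the list. Its level was 57.9, 23.4, 22.3, 20.4, 26.2 and 68.9 CPM at 0% and 48.4, 60.6, 24.9, 17.4 and 28.2 CPM at 0.5%. It was 27.6, 92.4, 19.0, 21.5 and 22.4 CPM at 1.0%, where replicate 2 was more than 3 times as high as any other library. The 2.5% libraries had 38.6, 73.8, 20.2, 81.2 and 24.7 CPM, which again overlapped the other diets. Oas2 was followed at low levels, from 1.19 CPM in 2.5% replicate 3 to 10.3 CPM in 2.5% replicate 4, and matched the others in 39 pairs. Oas1g matched in 36 pairs, Oas1a in 34, and Oas3 and Oasl1 in 33 each. Oas1a kept to 16 to 31.4 CPM with an SD of 0.32. Oas1a and Oas1g are near copies of each other, and how their reads were divided is not known.

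Among the sensors of viral nucleic acid, direction and size of the spread came apart. Ddx58, which encodes the RNA sensor RIG-I, was ordered as the other members in 40 pairs, yet its level moved only between 18.9 and 26.2 CPM over all 21 libraries, and its SD of 0.14 was below the median of all genes. At 0% it stood at 22.4, 21.2, 20.1, 23.3, 22.2 and 25 CPM, at 0.5% at 22.4, 23.8, 19.7, 18.9 and 21.2 CPM, at 1.0% at 22.3, 24.7, 20.1, 20.7 and 21.2 CPM and at 2.5% at 23.2, 24.4, 19.1, 26.2 and 19.8 CPM. Its highest library was that of the other members in each diet, at a much smaller step. Zbp1, a sensor of left-handed nucleic acid, matched in 37 pairs with an SD of 0.58, and Dhx58 and Ifih1, the relatives of RIG-I known as LGP2 and MDA5, matched in 34 each with SDs of 0.43 and 0.18. Zbp1 departed from the order in 0% replicate 5, where it was highest of all libraries at 12.3 CPM.

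Among the antiviral effectors, Mx1 and Mx2 were ordered as the other members in 36 and 33 pairs. Both belong to a dynamin-like family whose working proteins trap viral particles. The annotation lists Mx2 as a polymorphic pseudogene, and whether these transcripts give a working protein in these mice was not tested. Bst2, which tethers virions to the cell surface, matched in 32 pairs, and Rsad2, which makes an antiviral nucleotide, in 31. Rsad2 ran from 5.18 CPM in 0% replicate 3 to 25.6 CPM in 0% replicate 6, but within 1.0% only from 6.82 to 12.3 CPM. Mx2 was low everywhere, from 0.677 CPM in 0.5% replicate 4 to 4.66 CPM in 0% replicate 6.

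Of the transcription factors, Irf9 and Stat2, partners in the complex that binds the response element, matched in 39 and 37 pairs. Irf9 moved from 14.1 to 30.3 CPM and Stat2 from 25.7 to 44.3 CPM. Irf7, which amplifies type I interferon production, had a wider spread (22.3 to 75.3 CPM, SD 0.50) and matched in 32 pairs. At 0% Irf7 was 75.3, 34.9, 22.3, 32.4, 30.1 and 57.7 CPM, with replicates 1 and 6 high as in Isg15. At 0.5% it was 63.9, 58.4, 64.6, 41.0 and 58.1 CPM, where replicate 4 alone was low. Irf1 was even, from 59.2 to 104 CPM with an SD of 0.20, and matched in 29 pairs.

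The GTPases included the members that followed the others least. Gbp7 was ordered as they were in 20 of 45 pairs and Gbp3 in 22, at the level of the median gene, and Gbp2 and Iigp1 in 27 each. Gbp7 had its lowest library in 0% replicate 6 (14.1 CPM), where 27 members were highest, against 19.6 to 23.9 CPM in the rest of that diet. It was highest at 28.1 CPM in 0.5% replicate 2, which was also the top library of the other members. Gbp3 stayed between 3.69 and 7.63 CPM. Irgm1, an immunity-related GTPase with a role in autophagy, differed from these and matched in 38 pairs (35.7 to 61.0 CPM). Guanylate-binding proteins are close copies, and how reads shared by them were divided is not known.

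Cxcl9, a chemokine that draws T cells and is known as a target of interferon gamma, spread as widely as Ifit1 but in other mice. The SDs were 0.90 for Cxcl9 and 0.89 for Ifit1, against 0.64 for Ifit3 and 0.37 for Ifit2. Its level at 0% was 1.89, 1.20, 0.660, 1.03, 7.81 and 1.49 CPM. It was 0.868, 1.03, 0.777, 1.78 and 1.37 CPM at 0.5%, 3.11, 1.00, 0.613, 1.31 and 1.28 CPM at 1.0% and 2.11, 0.984, 0.785, 0.875 and 0.353 CPM at 2.5%. Cxcl9 was highest of its diet in 0% replicate 5, 0.5% replicate 4, 1.0% replicate 1 and 2.5% replicate 1. None of these had the highest member level of its diet. Counting Cxcl9, they were the top library of their diet for 4, 1, 4 and 9 members. Psmb9 peaked in these libraries at 0%, 1.0% and 2.5%, and Zbp1 and Iigp1 did so at 0% and 2.5%. These 4 libraries are among the 6 high in small intestine markers. That list has 13 markers, of which 11 passed the filter and none is at 0 throughout, and its summed level ran between 202 and 859 CPM in the controls and between 252 and 1359 CPM on broccoli. In 0% replicate 5 the summed level of 7 neutrophil markers was 25.8 CPM, of which Ly6g gave 22.6, against at most 1.82 CPM in the other controls and 2.72 CPM on broccoli. Only Ly6g and Csf3r of these 7 passed the filter, while S100a8 had 8 counts and S100a9 19 counts over all libraries. The part of these cells in the level of Cxcl9 was not tested.

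The antigen processing genes lay between. Tap1, a subunit of the peptide transporter, matched in 38 pairs, and the immunoproteasome subunits Psmb8 and Psmb9 in 36 and 31. Their SDs were 0.23, 0.36 and 0.29, against 0.21 for the median of all genes. Tap1 and Psmb9 lie head to head on chromosome 17 with exons that overlap by 3.87% of Tap1 and 5.79% of Psmb9, and 14.7% of Psmb8 lies opposite a predicted gene. Of the remaining members, Rtp4, a chaperone of membrane receptors, matched in 40 pairs and ran from 5.09 to 19.6 CPM, and Ifi44 in 38 (0.950 to 3.67 CPM). Ifi35 matched in 37 pairs with an SD of only 0.12, Xaf1, a proapoptotic factor, in 35, and Ifi27, a small membrane protein, in 23. Ifi27 was at 19.5 CPM in 0% replicate 6 and between 7.57 and 13.4 CPM in all other libraries. Of the exonic bases of Ifi35, 16.8% lie opposite a predicted gene, and whether counting used the strand is not stated.

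**Figure D4:**
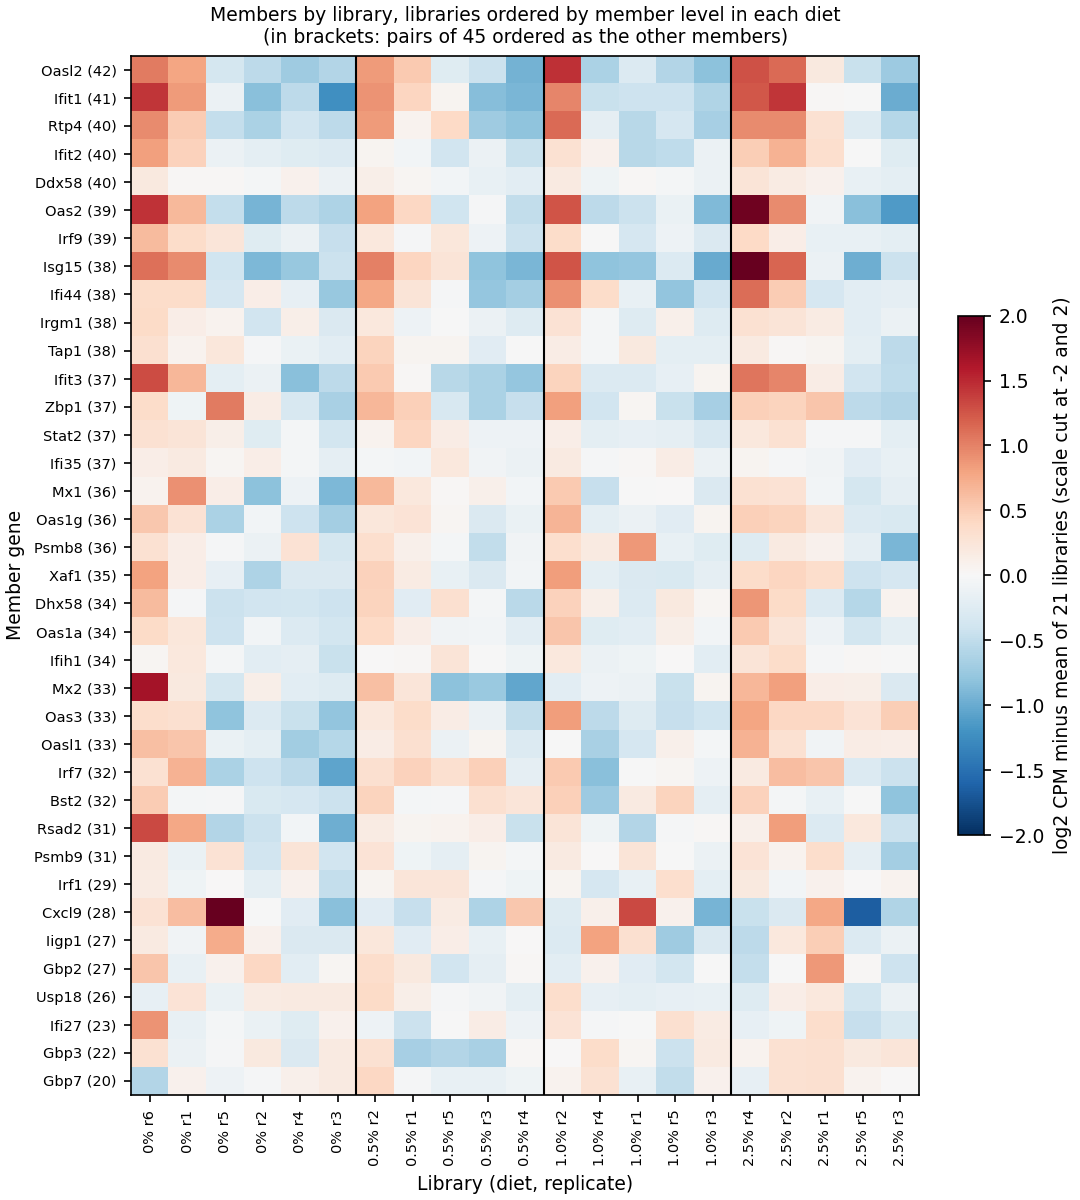
log2 CPM of the 37 tested members minus each gene's mean over 21 libraries (colour, limited to -2 and 2), with libraries in columns ordered within a diet from high to low member level and genes in rows by pairs ordered as the other members (in brackets, of 45). Rows near the top such as Oasl2 (42) tend to run from red to blue within a diet, and rows near Gbp7 (20) do not. Ddx58 (40) shows this only faintly, and Tap1 (38) and Ifit3 (37) break the order at 1.0%.

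By family, the top libraries of the 4 diets differed in how far each group stood above its mean. In 0% replicate 6 the median deviation from the 21-library mean was 1.31 (log2) for the IFIT genes, 0.91 for the antiviral effectors, 0.57 for the OAS family and 0.31 for the GTPases. In 2.5% replicate 4 it was 1.07 for the IFIT genes and 0.74 for the OAS family, and -0.17 for the GTPases. In 1.0% replicate 2 the OAS family stood at 0.76, the IFIT genes at 0.45 and the GTPases at 0.01. The median was higher there for Isg15 with Usp18, at 0.80, and for the group of Rtp4, Ifi44, Ifi35, Xaf1 and Ifi27, at 0.83. In 0.5% replicate 2 the IFIT genes stood at 0.53, the OAS family at 0.32 and the GTPases at 0.30. These 4 libraries were picked for the highest member level, which the families make up, so medians above 0 follow largely from that choice. The medians of all groups except the GTPases and chemokines were above 0 in each of the 4. That of the GTPases was 0.30 or more in 2 of them. Having the response element core in the promoter window did not sort the genes by how well they followed. The 15 tested members with the core matched in a median of 34 pairs (20 to 41) and the 13 with a window but without it in a median of 36 (28 to 42).

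Outside the list, the genes whose order was most like that of the members were Rnf213, a giant ubiquitin ligase, in 43 of 45 pairs, Apol9a and Slfn4 in 41, Apol9b and Trim34a in 40, Ube2l6, the enzyme that hands on ISG15, with Trim30a and Lgals3bp in 39, and Ifit1bl1 and Cmpk2 in 38. Apol9a, of the apolipoprotein L family, had a spread as wide as that of Isg15, from 1.67 to 19.9 CPM (SD 1.08), and peaked in the same library, 2.5% replicate 4. Rnf213 moved only from 53.8 to 92.1 CPM (SD 0.25). Slfn4, a Schlafen gene, ran from 15.6 to 47.7 CPM and peaked in 0% replicate 6. Of these 10 genes 6 were on the list of other type I targets described next.

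Further genes of the pathway were taken from lists of known targets that were not members. Of 39 other targets of type I interferon, 38 passed the filter. Their level, taken as for the members, ordered the libraries as the members did in 42 of 45 pairs, and 27 of the genes lay above the 90th percentile of all genes. Lgals3bp (155 to 238 CPM) matched in 39 pairs, Dtx3l (49.1 to 123 CPM) in 35, Helz2 (56.6 to 98.7 CPM) in 32 and Samd9l (151 to 252 CPM) in 29. Of 37 other targets of interferon gamma, 27 passed, their level matched in 33 pairs, and 10 of them lay above that percentile. The MHC class I genes H2-K1 and H2-D1 matched in 31 and 32 pairs and Tapbp, which loads peptides on them, in 30. Interferon receptors and signalling genes moved little. Their 13 tested genes had a level that matched in 29 pairs and spanned 0.23 (log2) over all libraries, with Ifngr1 in 30 pairs at 204 to 261 CPM. The 15 tested genes of sensing pathways matched in 28 pairs as a level, with the RIG-I activator Trim25 in 33 pairs.

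No level of a cell type marker list passed the 90th percentile of all genes, 28 pairs, and no limit was set for the low end. Over the 45 pairs, the level of the marker list matched in 25 for epithelium of the large intestine, 24 for B cells, 23 each for dendritic cells, endothelium and fat, 22 for small intestine and Paneth cells, 20 each for macrophages and monocytes, neutrophils and smooth muscle, 19 each for fibroblasts and blood, 18 each for plasma cells and for enteric neurons and glia, and 16 for T and NK cells, against 22 for the median gene. The T and NK cell level, the lowest of these, was thus ordered against the members in more pairs than with them. Single libraries also stood out. 2.5% replicate 4, with the highest Isg15, had the lowest level of all libraries in smooth muscle, fibroblast, dendritic cell and enteric neuron and glia markers. By summed CPM the same held except for dendritic cell markers. These summed to 384 CPM in 2.5% replicate 4 and were lowest in 0% replicate 6, at 287 CPM. The level of large intestine epithelium markers in 2.5% replicate 4 was the highest only narrowly, at 0.153 (log2), with 1.0% replicate 5 at 0.152 and 0% replicate 6 at 0.150. By summed CPM of these markers, 0.5% replicate 1 was the highest. 0% replicate 6 was the lowest in B cell and T and NK cell markers and the highest in smooth muscle. Summed over the list, epithelial markers ran between 16332 and 20831 CPM in the controls and between 18418 and 23321 CPM in the libraries on broccoli. Smooth muscle markers ran between 1392 and 3119 CPM in the controls and between 1164 and 2927 CPM on broccoli. All 11 epithelial, 6 smooth muscle, 6 fibroblast, 8 dendritic cell and 8 neuron and glia markers passed the filter. Their part in the order of the members was not tested.

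Depth moved with the level. Within diets the library of a pair with fewer total counts had the higher member level in 32 of 45 pairs, and the 3 libraries above the gap at 2.5% had the 3 lowest totals of that diet. After all libraries were thinned to 28514263 counts, the level in replicates 1 to 5 at 2.5% was 0.14, 0.33, -0.36, 0.36 and -0.17, and at 0% it was 0.24, -0.18, -0.39, -0.22, -0.06 and 0.39 in replicates 1 to 6. The range within a diet was 0.78, 0.55, 0.53 and 0.72 from 0% to 2.5%, against 0.81, 0.53, 0.53 and 0.60 at full depth. The thinning was added after the totals were seen. The share of mitochondrial counts was higher in the library with the higher member level in 19 of 45 pairs.

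The diets were then compared to ask whether broccoli powder moved the members, in a fit of all genes with edgeR and Benjamini-Hochberg adjustment. No member was called at an adjusted p under 0.05 in any comparison. At 0.5% against 0%, 0 of 37 members were called, against 0.00639% of all genes, and 0 had an unadjusted p under 0.05, against 7.14% of all genes. At 1.0% against 0% both member counts were 0, against 0% and 3.18% of all genes. At 2.5% against 0%, 0 of 37 were called (0.109% of all genes) and 3 had an unadjusted p under 0.05 (8.43% of all genes). For the slope of log2 expression per 1% powder, 0 were called (0.147%) and 1 had an unadjusted p under 0.05 (7.32%), and for any difference among the 4 diets 0 were called (0.0256%) and 0 had an unadjusted p under 0.05 (6.41%). DESeq2 also called 0 members in each of the 5 comparisons.

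**Figure D5:**
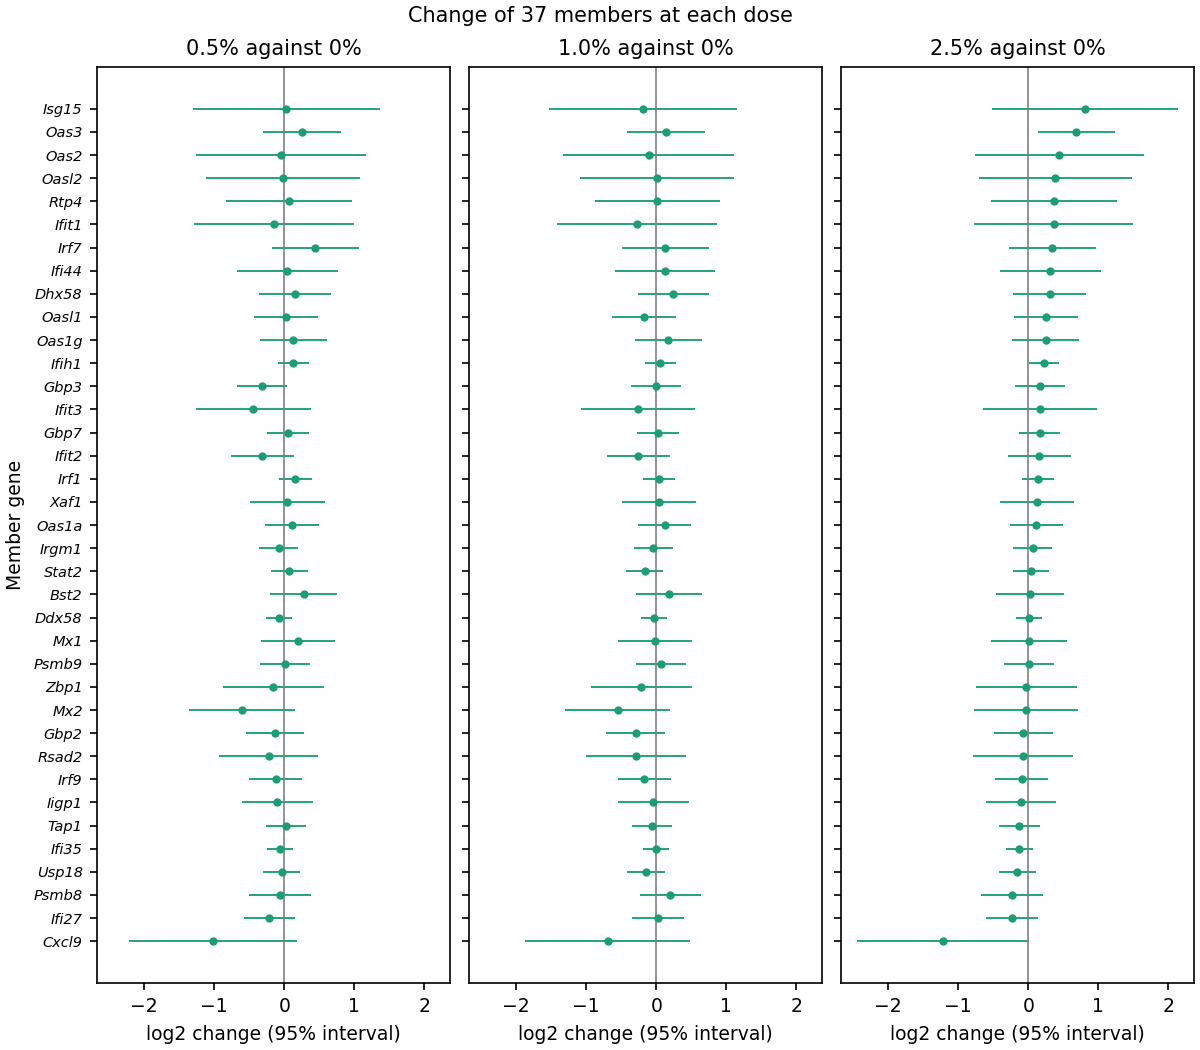
log2 change (points) with 95% intervals of the 37 tested members at 0.5%, 1.0% and 2.5% broccoli powder against 0%, ordered by the change at 2.5%. None passed the adjusted threshold; the intervals of Isg15, Oas2, Oasl2 and Ifit1 span more than 2 log2 units, and that of Oas3 at 2.5% runs from 0.13 to 1.24.

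The median log2 change of the members was -0.02 at 0.5%, -0.02 at 1.0% and 0.11 at 2.5%, against -0.00, -0.00 and -0.01 over all genes, and 18, 16 and 25 of 37 were positive, against 49.2%, 49.4% and 46.9% of all genes. At 2.5% this made 67.6% of the members. All 3 comparisons share the 6 libraries at 0%, and the members move together between mice, so their signs are not independent. The median slope was 0.04 per 1%, with 25 of 37 positive and 46.9% of all genes positive.

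Oas3, a large oligoadenylate synthetase, had the lowest p of the members at 2.5%. Its level was 33.8, 33.7, 35.8, 43.7 and 30.5 CPM at 2.5%, and 31.7, 21, 14.6, 18.6, 14.4 and 32.4 CPM at 0%. The groups overlapped, since replicate 5 at 2.5% lay below replicates 1 and 6 at 0%, and 4 of 5 libraries at 2.5% lay above all 6 controls. The log2 change was 0.69 ± 0.26 (SE), which did not pass (adjusted p = 0.487). At 0.5% its level was 32.6, 29.4, 23.4, 17.9 and 28.1 CPM, and at 1.0% it was 21.2, 45.2, 19.1, 17.6 and 18.3 CPM, with replicate 2 the highest of all libraries. The slope of Oas3 was 0.26 ± 0.09 per 1% (adjusted p = 0.527).

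Isg15 had the largest positive estimate at 2.5%, a log2 change of 0.81 ± 0.63 (adjusted p = 0.742) with a 95% interval from -0.51 to 2.13. That interval held 0. Ifit1 stood at 0.36 ± 0.54 with an interval from -0.77 to 1.49, and Oasl2 at 0.39 ± 0.52 with one from -0.71 to 1.48. Genes with a narrow spread had tighter limits. Ddx58 stood at 0.01 ± 0.09 (-0.17 to 0.20), Usp18 at -0.16 ± 0.13 (-0.42 to 0.11) and Irf1 at 0.13 ± 0.11 (-0.10 to 0.36). Ifih1 had a change of 0.22 ± 0.10 (adjusted p = 0.557), with levels of 50.7, 67.0, 51.5, 62.2 and 52.5 CPM at 2.5% against 37.9 to 59.8 CPM at 0%, which overlapped.

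Cxcl9 had the largest negative estimate at each dose. Its log2 change was -1.02 ± 0.57 at 0.5% (adjusted p = 0.705), -0.70 ± 0.56 at 1.0% (adjusted p = 0.999) and -1.21 ± 0.58 at 2.5% (adjusted p = 0.589). All share the 7.81 CPM of 0% replicate 5. Without that library the change at 2.5% was -0.30, and the other 5 controls, at 0.660 to 1.89 CPM, overlapped the 2.5% libraries at 0.353 to 2.11 CPM. Among the remaining members at 0.5%, Irf7 had the largest positive estimate (0.44 ± 0.30, adjusted p = 0.747), Mx2 stood at -0.61 ± 0.36 (adjusted p = 0.716) and Ifit3 at -0.44 ± 0.39 (adjusted p = 0.805). At 1.0%, Dhx58 had the largest positive estimate at 0.24 ± 0.24.

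No gene of the 5 pathway lists was called by edgeR in any comparison either. At 2.5%, where 46.9% of all genes were positive, 20 of 38 other type I targets were positive with a median log2 change of 0.02 and 0 genes at an unadjusted p under 0.05. Of 27 other interferon gamma targets 6 were positive, with a median of -0.11 and 4 genes at an unadjusted p under 0.05. H2-K1 stood at -0.01 ± 0.12, H2-D1 at -0.06 ± 0.12 and Tapbp at -0.11 ± 0.09. In interferon receptors and signalling 5 of 13 were positive and 3 had an unadjusted p under 0.05, with Stat3 at -0.18 ± 0.06 (adjusted p = 0.424), and in sensing pathways 8 of 15 were positive and 1 had such a p, the adaptor Ticam1 at 0.26 ± 0.08 (adjusted p = 0.328).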

How the data were processed

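The authors deposited raw counts per gene for all 21 libraries. RNA was taken as total RNA and made into strand-marking mRNA libraries, per the labels' protocols, and the submitters' processing notes name mm10. Which aligner and counter were used, and with which strand setting, is not given in the sources used here. Every column of samples matched a label, and 25268 of 25361 identifiers were named with GENCODE release 21 (GRCm38). Replicate numbers follow accession order and only name libraries. Whether the mice shared cages is not stated, so p-values measure the spread between these mice. No 2 libraries of a diet agreed within sampling noise (lowest chi-square per degree of freedom 17.1).

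Counts of 15652 genes that passed filterByExpr were tested with edgeR 4.0.16 (TMM, robust quasi-likelihood, two-sided, Benjamini-Hochberg over all genes), and log2 CPM used a prior count of 2. DESeq2 1.42.0 was an alternative. In simulated counts for 2.5% against 0% (15557 genes), 94% of changes of 2 and 84% of changes of 1 on the log2 scale were recovered. In the same run, 9 unchanged genes were called. The changed genes were drawn at random from all genes, and each gene was simulated on its own. Members spread more within diets (median SD of log2 CPM 0.39, against 0.21 over all genes) and move together. The shares recovered are therefore not those of the members.

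The members, the lists and the rules for what was named (all members, up to 4 of the most expressed genes per pathway list, the 10 most alike genes) were chosen with earlier results of these data known. One result is not reported here. Other choices tried were scaling, the filter, the prior count, the mean for the median, pairs of diets fitted alone, and leaving out libraries.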

Additional observations from a re-analysis of the deposited data

Results flagged for a closer look

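In each diet the highest and the lowest library of every tested member, and of the level over members, were set against the gap to the next library as a share of the diet's whole range. Of 152 such groups, 14 had a library farther from the rest than Dixon's limit, 11 at the high end and 3 at the low end. For normally distributed values the limit is set to be passed in about 1 in 20 groups. The share over all genes was not computed, so the count does not set the members apart from other genes. The groups are not independent, since the members move together.

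1.0% replicate 2 accounted for 7 of the 14. Its gap, as a share of the range, was 0.864 for the level over members, 0.918 for Usp18 (19.5 CPM against 13.3 to 13.8 CPM in the other 4 libraries), 0.895 for Xaf1, 0.874 for Ifit1, 0.803 for Oas3, 0.765 for Oasl2 and 0.727 for Rtp4. 0% replicate 6 was high for Mx2 (0.731) and Ifi27 (0.705) and low for Gbp7 (0.629). 0.5% replicate 4 was low for Rsad2 (0.834, at 7.52 CPM against 10.7 to 11.5 CPM) and Irf7 (0.767). 0.5% replicate 2 was high for Gbp7 (0.763), and 0.5% replicate 5 was high for Ifi35 (0.797).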

How the results depend on the processing

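Over 16 results, 459 of 461 alternative values kept their direction, their side of the threshold or their size. These rules were wide. A change of a single gene counted as kept if its sign and its side of the threshold held. A range counted as kept if it shifted by less than the SD of the level in its diet. Cxcl9 at 2.5% thus counted as kept without 0% replicate 5, at -0.30 against -1.21 with all libraries. The 2 that moved were the range of the member level within 0.5% without its replicate 2 (0.294) and within 1.0% without its replicate 2 (0.0315). Leaving out each library in turn, the count of members called stayed at 0 in all 5 comparisons. The median within-diet SD lay between 0.365 and 0.403, the median share of pairs ordered alike between 72.5% and 80.5%, and the members above the 90th percentile between 28 and 33. The range of the level lay between 0.632 and 0.847 at 0%, 0.294 and 0.561 at 0.5%, 0.0315 and 0.548 at 1.0%, and 0.531 and 0.630 at 2.5%. At 2.5% Cxcl9 lay between -1.66 and -0.30, Oas3 between 0.59 and 0.82 (adjusted p from 0.290) and Ifih1 between 0.15 and 0.29. When the 6 libraries with high small intestine markers were left out, the median share of pairs was 81.8%. The count above the 90th percentile and the thinning were chosen after seeing the data. No paired analysis was possible because replicate numbers were given in accession order and pair nothing. Cxcl9, Mx2 and Ifi44 rest on 13 to 357, 27 to 141 and 41 to 137 counts per library, which limits their precision. The 5 or 6 mice per diet and their spread limit Isg15, Oas2, Oasl2 and Ifit1.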
